A study of Mus musculus with 7 samples.

Results

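The genes described here are the serpins (serine protease inhibitors) of the mouse, taken as every gene whose symbol starts with *Serpin* in the gene lists deposited with the counts. There were 62 such genes among the 30406 genes shared by both gene lists. Their levels were read in 6 cell classes from dissections of the seminal vesicle, the gland that makes most of the fluid of the ejaculate. A serpin exposes a loop that its target protease cleaves, after which the protease stays bound to the serpin in a dead complex. Most serpins work outside the cell on proteases of clotting, fibrinolysis, complement and inflammation, while those of clade B stay mainly inside the cell, and a few have lost inhibition and serve as chaperones or signals. In the male tract, seminal fluid clots and then liquefies through proteases and their inhibitors, and *Serpine2* (protease nexin-1, an inhibitor of thrombin, plasmin and urokinase) has long been known as a product of the seminal vesicle.

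The tissue came from 23 wild-type male mice in 7 libraries. The aging pool held 10 C57BL/6J mice on chow that were tagged and run together, with 2 mice each at 3 months, 20 months, 20 months with rapamycin, 28 months and 28 months with rapamycin. The diet pool held 8 FVB/NJ mice of 3 months, with 2 each on the control diet, caloric restriction, high fat and low protein, and 3 more FVB/NJ mice of that age (1 control, 1 high fat, 1 low protein) were run as single-mouse libraries. The last libraries came from FVB/NJ mice on the control diet, called the young individual (3 months) and the old individual (18 months). They are described apart, because no cell of theirs reached the *Svs* share set for secretory cells. The conditions inside the pools were read from the names of the deposited tables and the tag file, matched to the paper's list of animals, since the sample labels give the pool and the strain only.

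Each cell was placed in a class by marker RNA, as secretory (7 *Svs* genes, which encode the clotting proteins of seminal fluid), prostate-like (*Tgm4*, *Pbsn*), basal (*Krt5*, *Krt14*), fibroblast (*Col1a1*, *Col1a2*), endothelial (*Pecam1*) or macrophage (*C1qa*). Of 53352 deposited cells 40342 were kept, and the *Serpin* values of classes rest on 9559 secretory, 638 prostate-like, 1751 basal, 1812 fibroblast, 434 endothelial and 1150 macrophage cells of mice with at least 10 cells of the class. A level is given as UMIs (unique molecular identifiers, each standing for 1 captured RNA molecule) of the gene per 1000000 UMIs of genes other than *Svs*, since *Svs* RNA made up a median of 65.2% of the UMIs of a secretory cell. All 7 marker genes chosen to check the class were highest in their own class for basal, fibroblast, endothelial and macrophage cells. In secretory cells this held for 5 of 7 (not *Krt8* and *Epcam*) and in prostate-like cells for 4 of 7 (not *Sbp*, *Krt8* and *Epcam*). The paper saw no strongly TGM4-positive cells in sections of the gland. It regards carry-over from the adjoining prostate as the likelier origin of the prostate-like cells, while naming reasons why the gland may hold such cells. Their origin was not tested here. The endothelial class also held RNA of lymphatic endothelium (4 of 4 markers, summed level 1460 in the median mouse, range 0 to 5226) and of pericytes (471, range 51.6 to 1108), and the fibroblast class that of smooth muscle (422, range 72.3 to 1226) and mesothelium (213, range 54.1 to 325). Non-*Svs* UMIs summed per class ran from 59852681 in secretory cells to 1853779 in endothelial cells. Fewer RNA molecules per cell and lower capture cannot be told apart in these levels, and counting intervals cover counting error only.

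Of the 62 serpins, 43 had at least 1 UMI in the 21 mice outside the individuals, 20 had 100 or more, while 19 had none. Clade E was the most abundant, with 79458 UMIs or 52.0% of all *Serpin* UMIs, and 74992 of these were *Serpine2*. Clade B followed with 28036 UMIs (18.4%) over 27 genes, of which 20041 were *Serpinb6a*. The single genes of clade G (*Serping1*, C1 inhibitor, which blocks the first proteases of complement and plasma kallikrein) and clade H (*Serpinh1*, the collagen chaperone HSP47) held 10.9% and 9.19%. The 24 genes of clade A, which include the antitrypsins of the liver, held 5.40%, with *Serpina3n* (4327 UMIs) the most abundant of them.

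The family lies largely in gene clusters. On GRCm38, 13 members are on chromosome 1, 23 on chromosome 12 between positions 103614786 and 104414329, and 16 on chromosome 13 between 32842092 and 34002794. Some clustered copies are alike enough to lose reads when only uniquely placed reads are counted. For 11 members some 90-base window of the last 500 transcript bases was shared with another gene, up to 89.5% of the windows of *Serpinb9f* and 68.1% of those of *Serpinb9h*, both of which had 0 UMIs. A count of 0 for such copies is therefore uncertain. Neighbouring genes that overlap, such as *Serpina1b* with *Serpina1d* and *Serpina3k* with *Serpina3m*, are uncertain as well. The genes named in the results that follow shared none of these windows, except *Serpina3g* (5.78%) and *Serpina3i* (7.18%).

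**Figure D1:**
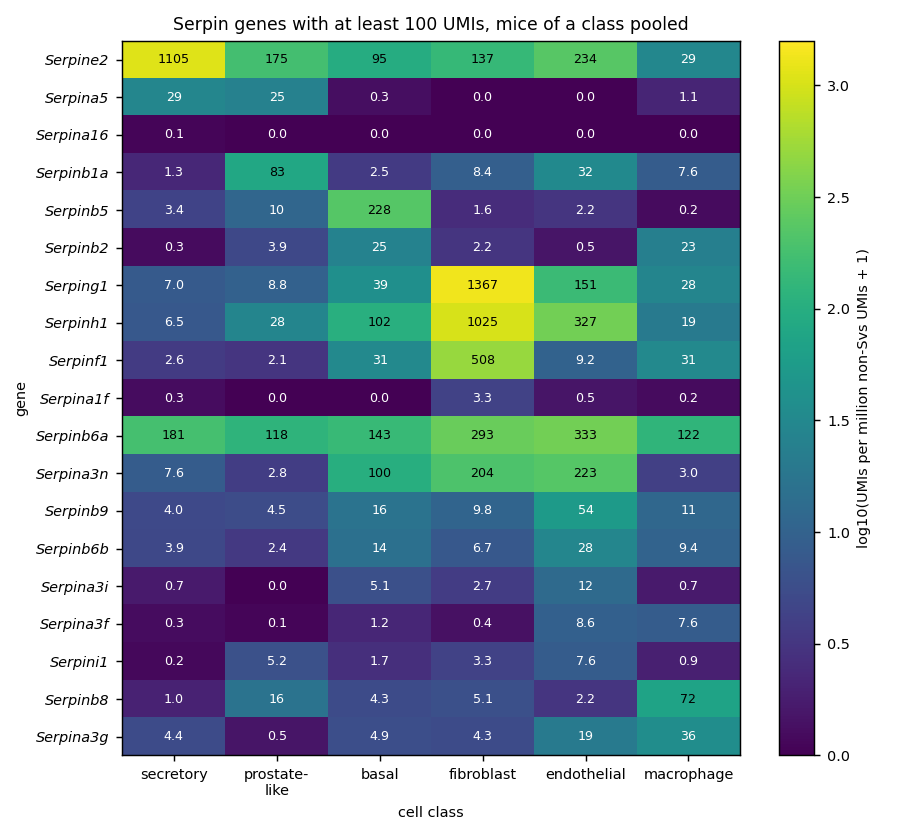
Level of 19 *Serpin* genes with at least 100 UMIs in each of the 6 cell classes, with all mice of a class summed; color is log10 of UMIs per 1000000 non-*Svs* UMIs plus 1, and the level itself is printed in each cell. *Serpine2* stood at 1105 in secretory cells, *Serpinb5* at 228 in basal cells and *Serping1* at 1367 in fibroblasts, while *Serpinb6a* lay between 118 and 333 in all 6.

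Summed over the family, fibroblasts carried the most *Serpin* RNA, at a level of 3874 in the median mouse (range 2614 to 5507, n = 21), followed by endothelial cells at 1477 (650.0 to 2373, n = 18) and secretory cells at 1399 (1023 to 2147, n = 21). Basal cells had 803 (531 to 1255, n = 19), macrophages 508 (344 to 754, n = 21) and prostate-like cells 482 (374 to 682, n = 13). *Serpin* RNA was shared unequally among members. With the UMIs of all mice of a class pooled, the leading 3 genes made up 96.6% of it in secretory cells but 56.3% in endothelial and 56.4% in basal cells. The pooled secretory share rests mostly on the 3 single-mouse libraries, which gave 8437 of the 9559 secretory cells. Fibroblasts did not overlap with any other class in the family sum per mouse. The 6 classes do not cover all cells, as 48.7% of kept cells in the aging pool, 39.9% in the diet pool and 14.9% in the single-mouse libraries fell in no class. These cells held 58.9% of the *Serpinb9* UMIs of the 21 mice, 61.0% for *Serpinb6b*, 49.6% for *Serping1*, 46.3% for *Serpinh1* and 46.8% for *Serpinf1*, but 3.59% for *Serpine2*.

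To show the DNA just upstream of a few members that the results turn on, the 150 bases before the start of transcription are given for 4 members, namely genes called higher in secretory (*Serpine2*), basal (*Serpinb5*) and fibroblast (*Serpinh1*) cells and one abundant in the young and old individual (*Serpina1f*). They were taken from RefSeq on GRCm38.p6 and are written 5′ to 3′ on the gene's strand. Capitals mark a match, on either strand, to the letters TATAAA of the TATA box, the letters TGTTCT of an androgen response half-site, the letters CCAAT of the box of that name, or the letters GGGCGG of the GC box. A match that overlaps the one before it is left unmarked.
Serpine2, chr1:79858666-79858815, minus strand: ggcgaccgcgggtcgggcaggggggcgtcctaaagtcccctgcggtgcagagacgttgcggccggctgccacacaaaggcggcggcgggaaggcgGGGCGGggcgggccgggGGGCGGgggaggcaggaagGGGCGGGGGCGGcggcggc
Serpinb5, chr1:106861025-106861174, plus strand: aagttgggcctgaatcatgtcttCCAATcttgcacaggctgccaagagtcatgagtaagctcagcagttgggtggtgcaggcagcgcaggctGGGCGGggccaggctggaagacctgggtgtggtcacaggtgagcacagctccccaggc
Serpinh1, chr7:99353240-99353389, minus strand: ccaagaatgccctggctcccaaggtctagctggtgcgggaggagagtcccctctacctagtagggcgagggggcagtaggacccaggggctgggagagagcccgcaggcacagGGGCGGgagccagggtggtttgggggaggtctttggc
Serpina1f, chr12:103695530-103695679, minus strand: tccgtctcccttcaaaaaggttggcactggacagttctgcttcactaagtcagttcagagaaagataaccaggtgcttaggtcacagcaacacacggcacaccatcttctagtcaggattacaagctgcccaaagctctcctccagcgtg
The *Serpine2* window held 4 marked GC boxes, and a further, unmarked GGGCGG overlaps the first of them. That of *Serpinb5* held 1 CCAAT and 1 GC box, and that of *Serpinh1* 1 GC box, while none of the 4 motifs was in the *Serpina1f* window. Over 63 start sites of 54 *Serpin* genes, GGGCGG stood at 7 (11.1%, against 28.6% of all 32851 promoters of this length) and TATAAA at 13 (20.6%, against 7.57%). TGTTCT was found at 7 *Serpin* starts (11.1%, against 9.62%) and CCAAT at 13 (20.6%, against 24.5%). A match is a description of these letters and not a site of binding.

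In the tests between classes, UMIs summed per mouse and class were compared with edgeR's quasi-likelihood test, each class against the mean of the log levels of the other 5 with the mouse as a block, over 5406 genes. A gene was called at a Benjamini-Hochberg adjusted p under 0.05 and a log2 difference of at least 1. Among the 62 members, 10 had enough counts to be tested, so the numbers called say nothing about the family as a whole. In secretory cells 2 of these 10 members were called higher and 6 lower, where 18.2% and 25.7% of all genes were. The same counts were 2 and 5 in prostate-like cells (14.7% and 23.5% of all genes), 2 and 2 in basal cells (12.3% and 14.5%), 5 and 1 in fibroblasts (17.9% and 11.1%), 5 and 2 in endothelial cells (18.4% and 18.1%) and 3 and 4 in macrophages (19.0% and 18.1%). Besides these 10, some members below the count filter are given from the fit without that filter, and are named as such.

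*Serpine2* was the serpin of secretory cells. Its level had a median of 1101 over 21 mice, the lowest being 636 in control mouse 2 of the diet pool and the highest 1882 in 28 months mouse 2, and no mouse reached as high a level in another class as its lowest secretory one. The log2 difference from the other classes was 4.46 (SE 0.15, adjusted p = 6.3e-49 by edgeR). At least 1 *Serpine2* UMI was seen in 96.4% of secretory cells, at a median of 4645 non-*Svs* UMIs per cell, and in 7.91% of macrophages, at a median of 3375.5. Free RNA of secretory cells was gauged from the *Svs* UMIs of each class, by asking what *Serpine2* level would come with them at the ratio seen in secretory cells. That level was 5.42 in prostate-like, 15.7 in basal, 5.89 in fibroblast and 6.63 in endothelial cells, where 132, 82.9, 91.8 and 156 were measured, and the measured value was the higher in 13 of 13, 19 of 19, 20 of 21 and 18 of 18 mice. In macrophages it was 14.1 against 18.5 measured, with 14 of 21 mice higher. The gauge takes free RNA to hold *Serpine2* and *Svs* at the ratio of secretory cells, which was not tested. Below secretory cells the order was endothelial, prostate-like, fibroblast and basal, whose neighbours did not pass the test (endothelial against prostate-like log2 0.04, 95% interval -0.53 to 0.61, adjusted p = 0.91 by edgeR).

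*Serpina5* (protein C inhibitor, whose loss makes male mice sterile) was largely restricted to the secretory and prostate-like classes. It was at 23.5 in the median secretory sample (range 0 to 102, n = 21) and at 12.2 in the median prostate-like one (range 0 to 103, n = 13), and both classes had mice at 0. No *Serpina5* UMI was found in 1812 fibroblasts or in 434 endothelial cells (a count of 0 allows levels up to 0.588 and 1.62), while basal cells had 2 UMIs and macrophages 5. In the fit without a count filter it was higher in secretory cells by a log2 of 5.43 (SE 0.27, adjusted p = 1.6e-45 by edgeR) and in prostate-like cells by 4.37 (SE 0.34, adjusted p = 1.6e-25). Mice differed far more than for *Serpine2*, from 0 and 1.08 in 28 months mouse 2 and 20 months mouse 2 to 102 in 28 months mouse 1. In prostate-like cells *Svs* UMIs would bring a level of 0.0544, and the measured level was higher in 10 of 13 mice.

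In prostate-like cells the member set apart was *Serpinb1a*, which inhibits elastase, cathepsin G and proteinase 3 of neutrophils. Its median level there was 87.6 (range 24.7 to 193, n = 13), against 17.0 in endothelial cells, 4.51 in fibroblasts, 4.36 in macrophages, 0.942 in secretory and 0 in basal cells. The log2 difference was 3.70 (SE 0.25, adjusted p = 3.4e-25 by edgeR). *Serpinb1a* was also called higher in endothelial cells, by a log2 of 1.71 (SE 0.36, adjusted p = 2.2e-05), in a test that sets a class against the mean of the logs of the others. The endothelial samples ranged from 0 to 651, and the highest came from the single-mouse low protein library with 16 cells. *Serpinb8*, an intracellular inhibitor of furin, was the other member called higher in prostate-like cells (median 13.5, log2 1.60, SE 0.27, adjusted p = 1.6e-07), and *Serpina3n* was among those called lower (log2 -3.60, SE 0.50).

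Basal cells were marked by *Serpinb5* (maspin, a serpin without inhibitor activity known from epithelial basal layers). The median level was 241 over 19 mice (range 135 to 364), and the next class was prostate-like at 13.5 (range 0 to 22.8), with no overlap. The log2 difference reached 6.18 (SE 0.19, adjusted p = 1.4e-51 by edgeR), larger than for any other member in any class of this fit. A *Serpinb5* UMI was present in 43.6% of basal cells at a median of 2074 non-*Svs* UMIs, and in 0.0870% of macrophages. *Serpinb5* was also called higher in secretory cells (log2 1.06, SE 0.29, adjusted p = 0.00056), but with the TMM scaling left out the difference was 0.29 and was not called. Its secretory levels were up to 19.8 in the pools, with a lowest of 3.348 in the diet pool, and 0.261 to 0.941 in the single-mouse libraries. The RNA of basal marker genes in secretory and in prostate-like cells would bring *Serpinb5* levels of 25.01 and 48.1 at the basal ratio, above the 7.96 and 13.5 measured, in 19 of 19 and 13 of 13 mice. An estimate above the measured level sets no share for basal RNA, and the source was not tested.

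The other leaders in basal cells were *Serpina3n*, an inhibitor of granzyme B and cathepsin G that rises in inflammation, and *Serpinb2* (plasminogen activator inhibitor-2). *Serpina3n* was at 81.6 (range 0 to 217, n = 19; log2 1.76, SE 0.26, adjusted p = 5.0e-09 by edgeR), and its 3 single-mouse values, 182 to 217, lay above all 16 of the pools, of which the highest was 128. *Serpinb2* was below the count filter and reached 18.7 in the median mouse (range 0 to 245), with a log2 of 4.21 (SE 0.32, adjusted p = 5.3e-27) in the fit without it. Its 165 UMIs came from few cells, as 1.87% of basal cells had one. *Serpinb6b* (log2 1.07) and *Serpina3i* (1.67) were also called higher in basal cells in that fit, at median levels of 10.7 and 2.58. Neither was particular to basal cells, since both were called higher in endothelial cells too, by a larger log2 (1.37 and 2.47). Their endothelial medians were 18.3 and 0.

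Fibroblasts had several abundant serpins among the members called higher. *Serping1* had a median of 1393 (range 595 to 1940, n = 21) and a log2 difference of 5.50 (SE 0.16, adjusted p = 6.3e-55 by edgeR), and 87.1% of fibroblasts had a UMI of it, against 2.72% of secretory cells. *Serpinh1*, which binds procollagen in the endoplasmic reticulum, had a median of 925 (482 to 1555; log2 4.35, SE 0.14, adjusted p = 1.2e-49). *Serpinf1* (pigment epithelium-derived factor, a secreted serpin that does not inhibit proteases and restrains vessel growth) had a median of 463 (144 to 1439), and its log2 difference of 5.67 (SE 0.16, adjusted p = 1.8e-55) was the largest in this class. *Serpina3n* had a median of 181 (0 to 477; log2 3.04, SE 0.23, adjusted p = 3.4e-22). *Serpinb5* was the member called lower (log2 -2.16, adjusted p = 0.019). The fibroblasts of the 3 single-mouse libraries stood apart in *Serpinf1*, at 1008 to 1439, from the diet pool of the same strain and age, at 144 to 456, and the source of that gap cannot be told apart from the run.

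Of these genes, 3 were also called higher in endothelial cells. *Serpinh1* had a median of 310 (range 103 to 836, n = 18; log2 2.19, SE 0.18, adjusted p = 4.3e-20 by edgeR) and *Serpina3n* one of 135 (38.3 to 473; log2 3.04, SE 0.26, adjusted p = 7.1e-19). The level of *Serpina3n* did not differ between endothelial cells and fibroblasts by the test (log2 -0.00, 95% interval -0.54 to 0.54). *Serping1* was called as well (median 149.8, log2 1.23, SE 0.24, adjusted p = 2.7e-06 by edgeR). Fibroblast marker RNA in these cells would bring 12.6 of *Serpinh1*, 2.56 of *Serpina3n* and 15.4 of *Serping1*, and the measured levels were higher in 18 of 18 mice for each. Among members below the count filter, *Serpinb9*, the inhibitor of granzyme B, was highest in endothelial cells, with a median of 36.2 (range 10.2 to 257), where the other classes had medians of 2.25 to 14.8 (log2 2.16, SE 0.25, adjusted p = 4.8e-14 by edgeR without the filter). Markers of T and NK cells, in which *Serpinb9* is known to protect against the cell's own granzyme, summed to 18.1 in the median endothelial sample (range 0 to 764) and to 84.8 in macrophages (0 to 538), and their part in the *Serpinb9* level was not tested.

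Macrophages carried little *Serpin* RNA. The largest difference of the class was that of *Serpinb8*, at 60.0 (range 0 to 171, n = 21; log2 4.21, SE 0.22, adjusted p = 2.0e-33 by edgeR), and both mice at 0 were single-mouse libraries with 10 and 12 macrophages. *Serpinf1* was called too (median 33.3, log2 1.33, SE 0.26, adjusted p = 4.6e-06), against 7.44 that fibroblast RNA would bring, with 18 of 21 mice higher. *Serpine2* (log2 -2.75), *Serpina3n* (-3.55), *Serpinb5* (-4.18, on 1 UMI in all macrophages) and *Serpinh1* (-2.11) were called lower. *Serpina3g*, an intracellular inhibitor of cathepsins in leukocytes, came below the filter with a median of 25.002 (range 0 to 145; log2 2.46, SE 0.26, adjusted p = 1.5e-16 by edgeR without the filter), and it was also called higher in secretory cells (median 7.17, log2 1.28). That secretory median lay below the mean of the other medians (8.00). Its secretory levels were 0.716 to 1.65 in the single-mouse libraries and 7.17 to 106 in the aging pool. *Serpina3f* was called higher in macrophages in that fit as well (median 4.16, log2 2.58).

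*Serpinb6a*, an intracellular inhibitor of cathepsin G and related enzymes, was called higher or lower in no class. Its medians ran from 118 in macrophages through 122 in prostate-like, 152 in basal, 175 in secretory and 271 in endothelial cells to 308 in fibroblasts, and no log2 difference reached 1 in either direction (lowest -0.69 in basal cells). The log2 of 0.80 in secretory cells went against the levels, since their median of 175 lay below the mean of the other medians (194). Without TMM factors, an alternative chosen after seeing the data, the median log2 of all genes in secretory cells moved from -0.16 to -1.02. All classes overlapped, and fibroblasts against endothelial cells (log2 0.33, 95% interval 0.03 to 0.64, adjusted p = 0.059 by edgeR), basal against prostate-like (-0.03, -0.36 to 0.31) and prostate-like against macrophages (-0.09, -0.43 to 0.26) did not pass the test. A *Serpinb6a* UMI was seen in 25.4% of macrophages and up to 57.6% of secretory cells. Over the 10 tested members, 29 of 50 pairs of neighbouring classes in the order of medians passed the test and 21 did not. In 2 of the 29 the fitted difference ran against the order of medians or between medians of 0, *Serpinb6a* in endothelial against secretory cells (log2 -0.38, 95% interval -0.68 to -0.08, adjusted p = 0.019 by edgeR) and *Serpinf1* in prostate-like against endothelial cells (-1.43, adjusted p = 0.048). The order was fibroblast, endothelial, basal, prostate-like, secretory and macrophage for *Serpinh1* and fibroblast, endothelial, basal, macrophage, secretory and prostate-like for *Serping1*. For *Serpina3n* it was fibroblast, endothelial, basal, secretory, prostate-like and macrophage, for *Serpinf1* fibroblast, macrophage, basal and secretory with prostate-like and endothelial cells at a median of 0, and for *Serpinb8* macrophage, prostate-like, basal, fibroblast, secretory and endothelial.

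**Figure D2:**
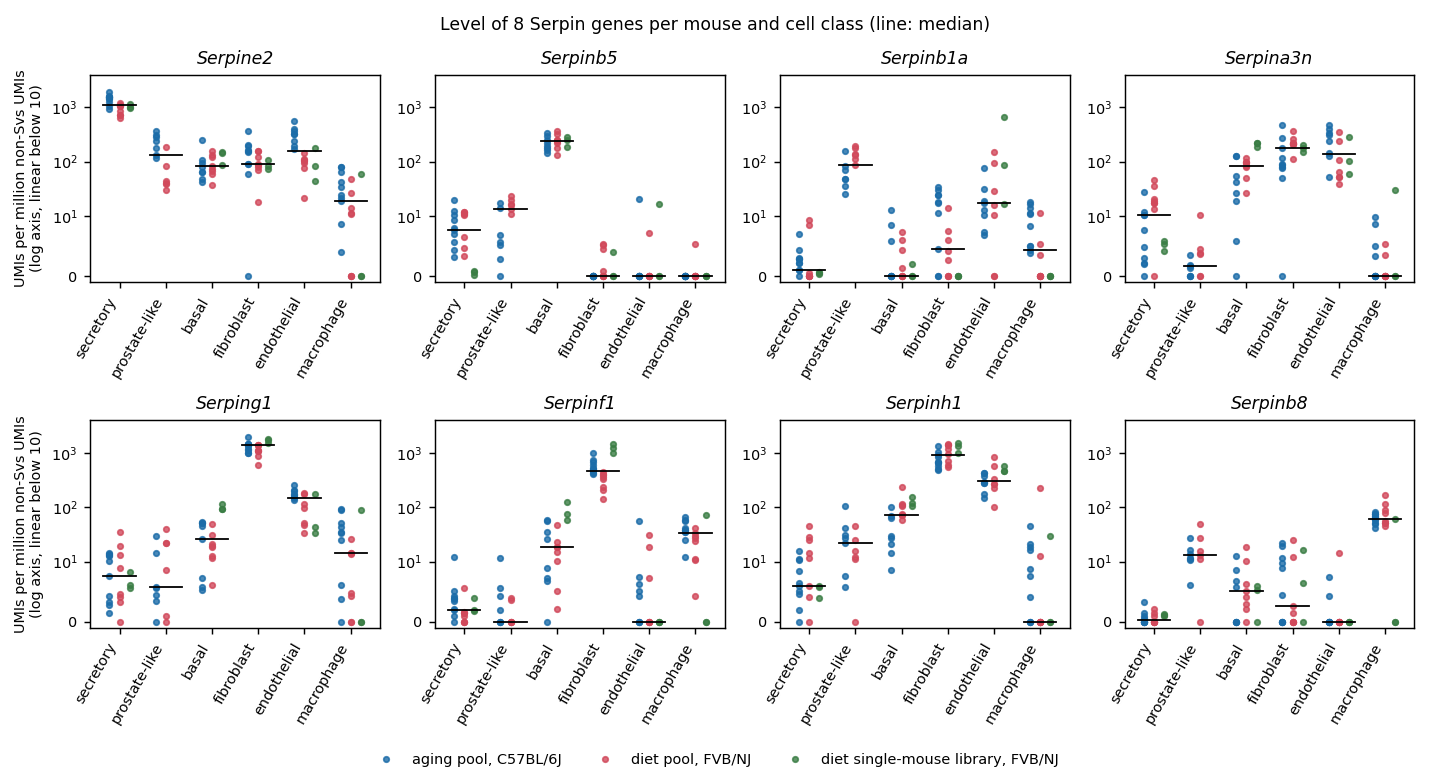
Level of 8 *Serpin* genes in every mouse with at least 10 cells of a class (y axis, UMIs per 1000000 non-*Svs* UMIs, log scale that is linear below 10; x axis, cell class; points are mice, colored by pool, and lines are medians over mice). *Serpine2* in secretory cells and *Serpinb5* in basal cells lie clear of the other classes in every mouse, while *Serpina3n* is shared by basal, fibroblast and endothelial cells with medians of 81.6, 181 and 135.

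The proteases that serpins act on, the receptors and cofactors that clear or guide the complexes, and protease inhibitors of other families were counted in the same fit, from lists set by what the genes do. Of 30 target proteases 13 were tested, and 6 were higher and 2 lower in fibroblasts, with a median log2 of 0.84 where all genes had -0.03. In secretory cells 3 were higher and 7 lower (median -1.03, all genes -0.16). In prostate-like cells 1 was higher and 9 lower, in basal cells 4 and 3, in endothelial cells 1 and 3, and in macrophages 5 and 3. Of all genes tested, 18.2% were called higher and 25.7% lower in secretory cells, 14.7% and 23.5% in prostate-like cells, 12.3% and 14.5% in basal cells, 17.9% and 11.1% in fibroblasts, 18.4% and 18.1% in endothelial cells and 19.0% and 18.1% in macrophages. *Ctss* (cathepsin S) had the largest difference, 8.91 in macrophages with a median level of 1861, and *Masp1*, a protease of the complement lectin pathway that C1 inhibitor blocks, followed with 5.77 in fibroblasts (median 76.7, against 0 in the other 5 classes). Of 14 genes for uptake and cofactors 9 were tested, and none was higher and 7 lower in secretory cells. The counts were 1 and 6 in prostate-like cells, 5 and 1 in basal cells, 4 and 2 in fibroblasts, 3 and 3 in endothelial cells and 5 and 1 in macrophages. The median log2 was -1.28 in secretory, -1.83 in prostate-like, 1.17 in basal, 0.98 in fibroblast, -0.47 in endothelial and 1.32 in macrophage samples, where that of all genes was -0.16, -0.02, -0.07, -0.03, -0.14 and -0.12. *Thbd* (thrombomodulin) led with 5.15 in endothelial cells (median 332) and *Gpc1* with 4.76 in fibroblasts (84.4). Of 27 other protease inhibitors 17 were tested, and 9 were higher and 6 lower in secretory cells, 3 and 11 in prostate-like cells, 5 and 4 in basal cells, 9 and 5 in fibroblasts, 4 and 10 in endothelial cells and 3 and 9 in macrophages. Their medians in the same order of classes were 1.04, -1.56, -0.79, 1.43, -1.45 and -1.11. The largest differences were those of *Spink1*, a Kazal-type trypsin inhibitor, in secretory cells (7.99, median level 45665) and of *Pi16* in fibroblasts (7.85, median 262).

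The aging pool and the diet pool differ in strain, age, diet and run, which cannot be told apart, so the comparison is between the pools. Within each class, 31 tests of 11 members were made and 13 passed an adjusted p of 0.05, 4 of them higher and 9 lower in the diet pool. The share of all genes called was 15.0% in secretory, 11.2% in prostate-like, 17.6% in basal, 23.8% in fibroblast, 15.7% in endothelial and 15.0% in macrophage samples. *Serpine2* was lower in the diet pool in all 3 classes where it was called. In secretory cells its median was 936 in the diet pool (range 636 to 1177, n = 8) and 1510 in the aging pool (927 to 1882, n = 10), a log2 difference of -0.67 (SE 0.17, adjusted p = 0.0078 by edgeR). In prostate-like cells the medians were 42.3 and 240.4 (log2 -1.99, SE 0.35, adjusted p = 0.0011), and in endothelial cells 103 and 321 (log2 -1.84, SE 0.32, adjusted p = 0.00086), the latter without overlap. *Svs* RNA, which gauges free secretory RNA, was also lower in the diet pool, at a median of 0.487% against 0.888% of UMIs in prostate-like cells and 0.396% against 1.03% in endothelial cells. Its part in these differences was not tested.

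The other members called between the pools differed by class. Secretory *Serpina3n* was higher in the diet pool (medians 17.9 and 6.19, log2 1.87, SE 0.41, adjusted p = 0.0032 by edgeR), with overlap, as was *Serpinb6a* (213 and 164, log2 0.32, adjusted p = 0.041). Prostate-like *Serpinb1a* was higher (135 and 48.6, log2 1.06, SE 0.29, adjusted p = 0.024) and so was basal *Serpinh1* (91.0 and 28.1, log2 1.30, SE 0.37, adjusted p = 0.019). In fibroblasts the genes lower in the diet pool included *Serpinf1* (345 and 523, log2 -0.82, adjusted p = 0.0045) and *Serpinb6a* (220.5 and 373, log2 -0.65, adjusted p = 0.0045). Smooth muscle markers in the fibroblast class summed to medians of 789 in the diet pool and 192 in the aging pool without overlap, and their part in these differences was not tested. In endothelial cells *Serpinb6a* (224 and 378, log2 -0.99, adjusted p = 0.0016, no overlap) and *Serping1* (95.7 and 174, log2 -0.96, adjusted p = 0.027) were lower, as were lymphatic markers (medians 1146 and 3546, 4 of 4 present), whose part was not tested. *Serpinb6a* in basal cells was lower as well (126 and 172, log2 -0.47, adjusted p = 0.037). The *Serpinb6a* calls between the pools were lost in 5 of 7 alternatives in basal, 4 of 7 in secretory and 3 of 7 in fibroblast samples, and in 0 of 6 in endothelial samples. None of 3 members passed in macrophages by edgeR (1 at an unadjusted p under 0.05, where 701 of all 2533 genes were, and 0 by DESeq2). A fit of the mice of 3 months alone removes age but leaves strain, diet and run. It sets at most 2 mice of the aging pool against at most 8 of the diet pool. In endothelial cells only 1 such mouse of the aging pool had enough cells, so no fit was made there. In the other classes 2 calls were made, *Serpine2* in prostate-like cells (log2 -2.59, adjusted p = 0.00038 by edgeR) and *Serpina3n* in fibroblasts (log2 1.58, adjusted p = 0.026). With so few mice, calls lost in this fit are not read as an effect of age.

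**Figure D3:**
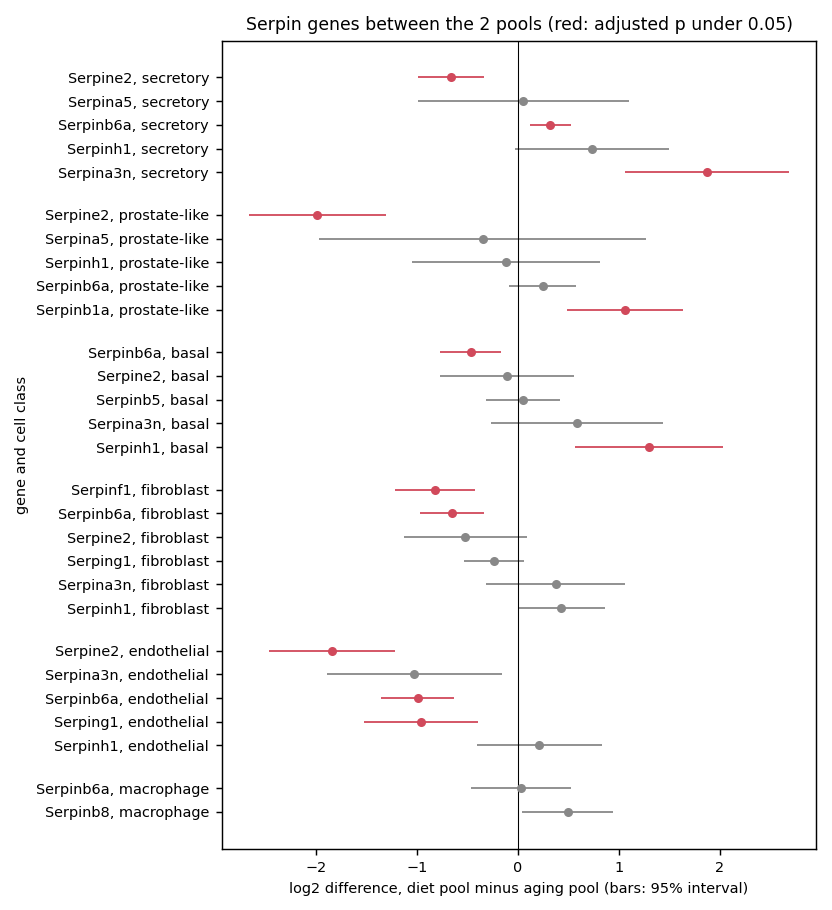
Log2 difference of tested *Serpin* genes between the diet pool (FVB/NJ) and the aging pool (C57BL/6J) in each cell class (x axis; y axis, gene and class; bars are 95% intervals and red marks an adjusted p under 0.05 by edgeR). The calls include *Serpine2* at -0.67, -1.99 and -1.84 in secretory, prostate-like and endothelial cells, and the macrophage values shown are 0.03 and 0.49.

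For the diets, mice of the diet pool and the single-mouse libraries were fitted together with pool or single library as a covariate, which gave 33 tests of 12 members over 5 classes. Under high fat none of 33 passed by edgeR (2 at an unadjusted p under 0.05, and 0 by DESeq2), where 0% of 20315 tests of all genes did. With low protein none passed (2 at an unadjusted p under 0.05, and 0 by DESeq2), where 0.0197% of all tests did. Among all genes, 87 and 145 of 6963 secretory tests had an unadjusted p under 0.05 under high fat and low protein. The same counts were 124 and 214 of 5589 in basal and 186 and 198 of 4587 in fibroblast samples. They were 35 and 53 of 1466 in endothelial and 61 and 70 of 1710 in macrophage samples. Caloric restriction gave 1 call, where 1.23% of all tests were called and 1.21% of genes in secretory cells were called lower. It was *Serpine2* in secretory cells, at 729 and 720 in the 2 restricted mice and at 1101, 636 and 1138 in the 3 control mice, of which the last is the single-mouse library. The groups overlapped, since control mouse 2 of the pool, with 15 secretory cells, lay below both restricted mice. The log2 difference was -0.90 (SE 0.22, adjusted p = 0.041 by edgeR), and no call was made in 9 of 11 fits that left out 1 mouse each (log2 -1.15 to -0.71, adjusted p 0.0021 to 0.24). Without TMM scaling it was -0.39 (adjusted p = 0.21).

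Under caloric restriction 8 of the 33 tests had an unadjusted p under 0.05, of which 4 were in basal cells and 3 in fibroblasts. Among all genes this held for 958 of 6963 in secretory, 782 of 5589 in basal and 439 of 4587 in fibroblast samples. It held for 80 of 1466 in endothelial and 126 of 1710 in macrophage samples. Fibroblast *Serpine2* was at 160 and 153 in the restricted mice and at 18.03, 71.4 and 91.8 in control mice, without overlap (log2 1.08, SE 0.30, adjusted p = 0.16 by edgeR). Fibroblast *Serpinf1* was at 413 and 456, inside the control range of 144 to 1008 but above the control mice of the pool, 144 and 238 (log2 1.02, adjusted p = 0.15). Basal *Serpinb5* was at 135 and 177 against 185 to 364 in control mice (log2 -0.62, adjusted p = 0.27), and basal *Serpinb9* at 0 and 2.17 against 15.6 to 31.5 (log2 -2.95, adjusted p = 0.17).

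**Figure D4:**
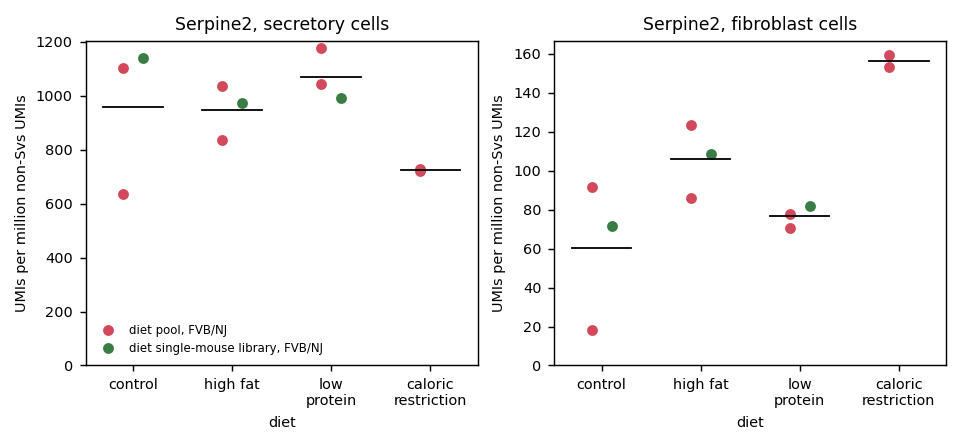
*Serpine2* level in secretory cells (left) and fibroblasts (right) of each FVB/NJ mouse on 4 diets (y axis, UMIs per 1000000 non-*Svs* UMIs from 0; points are mice, colored by pool or single-mouse library, and lines are means). The restricted mice lie at 720 and 729 in secretory cells, inside the control range of 636 to 1138, and at 153 and 160 in fibroblasts, above all 3 control mice.

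With age, a linear trend per 10 months was fitted in the aging pool, with a term for rapamycin, and none of 42 tests of 15 members over 6 classes passed by edgeR (lowest adjusted p 0.42, 7 at an unadjusted p under 0.05), where 0.0125% of all tests did, and none passed by DESeq2 (8 at an unadjusted p under 0.05). Among all genes, edgeR gave an unadjusted p under 0.05 for 315 of 6215 in secretory, 341 of 6961 in prostate-like and 160 of 2676 in basal samples. It did so for 118 of 1833 in fibroblast, 70 of 2986 in endothelial and 324 of 3298 in macrophage samples. *Serpina3n* in fibroblasts was at 49.2 and 87.1 in mice of 3 months and at 273 and 477 in mice of 28 months without rapamycin, while those of 28 months with rapamycin had 80.9 and 177 (log2 0.99, SE 0.24, adjusted p = 0.57). Secretory *Serpine2* had no order with age, at 1402 and 1497 in mice of 3 months and 1066 and 1882 at 28 months. In the fit without a count filter 5 of 138 tests were called, among them the fibroblast *Serpina3n* trend (log2 1.02, adjusted p = 8.4e-05 by edgeR). DESeq2, also on 138 tests, called 0. The share of all genes called without the filter is not given here, so these 5 calls are not weighed.

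The young and the old individual gave a different set of leading members. Over all 9164 and 9113 cells, without replicates, *Serping1* was at 337 in the young (95% counting interval 330.0 to 345) and 203 in the old individual (199 to 208), *Serpina3n* at 217 and 141, *Serpina1f* at 160.5 and 79.6, *Serpina16* at 121 and 107, *Serpinf1* at 120.0 and 56.7 and *Serpinb6a* at 112 and 74.9. *Serpina1f* and *Serpina16*, clade A serpins on chromosome 12, had at most 17 UMIs in any class of the other mice. *Serpinf2* (alpha-2-antiplasmin, the main inhibitor of plasmin) had 1144 UMIs in the young and 1807 in the old individual, against 10 in the 21 other mice together. In the classes that the individuals also held, *Serpinb5* was at 243 and 227 in basal cells, *Serping1* at 2232 and 1795 in fibroblasts and *Serpinb8* at 58.4 and 59.5 in macrophages, against medians of 241, 1393 and 60.0 in the other mice. The *Serping1* level of 2232 in the young individual lay above all 21 other mice, of which the highest was 1940. *Serpina3n* in basal cells was higher, at 566 and 565, than in any of the 19 mice, of which the highest was 217. *Serpine2* was at 83.4 and 39.0 over all cells, with no secretory cells present.

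Cells outside the 6 classes carried these members. Of the 5191 and 5959 such cells, 1306 and 2805 had the epididymal genes *Lcn8*, *Lcn9* and *Gpx5* and are called epididymis-like here. *Serpinf2* was at 119.5 and 82.1 in epididymis-like cells, while *Serpina1f* was at 15.1 and 33.3 and *Serpina16* at 6.51 and 22.955 there, below their 240.1 and 97.7, and 179.8 and 131, over all cells outside the classes. At least 2 UMIs of *Serpina1f* were found in 213 and 427 cells, of *Serpina16* in 181 and 314, and of both in 161 and 229, which is 75.6% and 53.6% of the first and 89.0% and 72.9% of the second. With *Serpinf2*, each shared 2 to 5 cells. In *Serpina16* cells of the young individual the genes with the largest ratio to the other cells outside the classes were *Spink14*, *Ltf*, *Defb9* and *Crisp1*, the last at a level of 49227. In the old individual they were *Defb22*, *Bsph2*, *Npy* and *Crisp1*. *Serpinf2* cells were led by *Defb47* and *Spink13*, at ratios of 3.89 and 3.37 in the young individual.

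In the aging pool the same pair appeared at a low level in some mice. Over all kept cells *Serpina1f* was at 1.93 and 0.364 in the mice of 3 months and at 0 to 4.23 in the diet pool. The mice of 20 months had 42.0 and 19.2 without rapamycin and 15.8 and 7.28 with it. Those of 28 months had 1.21 and 15.9 without rapamycin and 45.2 and 4.42 with it. *Serpina16* was at 15.6 in 20 months mouse 2 and 3.54 in 20 months mouse 1, below 1 in the other 8 mice of the aging pool, and at 0 in all 11 FVB/NJ mice outside the individuals. Few cells of the aging pool carried the pair. At least 2 UMIs were found in 12 cells outside the classes for *Serpina1f* and in 3 for *Serpina16*, and all 108 *Serpina16* UMIs of 20 months mouse 2 came from cells outside the classes. All 48 UMIs of *Serpina3a* came from the aging pool, in 7 of its 10 mice, and none from an FVB/NJ mouse, a difference that strain, pool and run share.

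**Figure D5:**
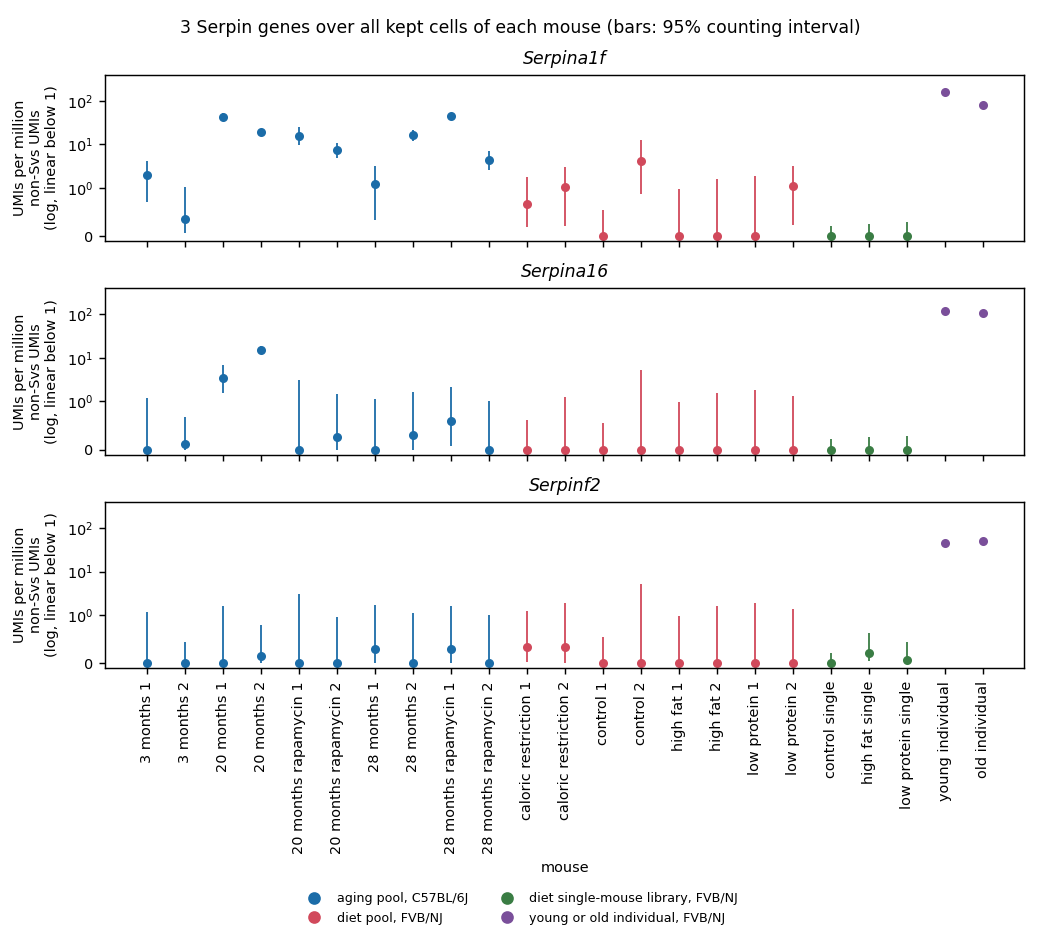
Level of *Serpina1f*, *Serpina16* and *Serpinf2* over all kept cells of each of the 23 mice (x axis, mouse; y axis, UMIs per 1000000 non-*Svs* UMIs, log scale that is linear below 1; points are mice, colored by set, and bars are 95% counting intervals). The 2 individuals lie at 160.5 and 79.6, 121 and 107, and 46.1 and 49.4, and *Serpina1f* reaches 45.2 in a mouse of the aging pool. In that pool 12 cells outside the classes had at least 2 UMIs of *Serpina1f* and 3 had at least 2 of *Serpina16*, and the intervals do not cover the spread between cells.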

How the data were processed

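Single-cell RNA was measured in seminal vesicle tissue of 23 mice in 7 libraries. Per the file headers, the authors made the deposited UMI counts with Cell Ranger 6.0.1 for the pools, split by tag into 1 table per mouse, and 3.1.0 for the single-mouse libraries, and the submitters' processing notes name mm10 and Seurat. Serpins were taken by symbol, and the members and gene lists were chosen with earlier results of these data known. Cells with at least 500 genes and 200 UMIs and at most 10% mitochondrial UMIs were kept (40342 of 53352). A limit of 1%, the kind of limit the study's methods describe, would keep 2615. Between 174 and 4214 cells were kept per mouse of the 21 compared, with 974010 to 46338707 UMIs.

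A secretory cell had at least 30% *Svs* UMIs (7 genes). The other classes had, per 10000 non-*Svs* UMIs, at least 30 of *Tgm4* plus *Pbsn*, 10 of *Krt5* plus *Krt14*, 10 of *Col1a1* plus *Col1a2*, 2 of *Pecam1* or 5 of *C1qa*, with at least 3 UMIs (2 for *Pecam1*). Cells passing several gates (446) were left out and no doublet caller was run. Classes with at least 10 cells of a mouse were summed. Libraries shared 6 to 30 barcodes. Gates cut a continuous range, and 1727 cells lay just under the fibroblast limit and 489 just over it. Sums were tested with edgeR 4.0.16 in R 4.3.3 (filterByExpr, TMM, glmQLFit, Benjamini-Hochberg over all genes tested, 2-sided), with the mouse as a block between classes, pool or single library as a term for diets and rapamycin as a term for age. DESeq2 1.42.0, other gates, filters and scalings were tried as alternatives. Standard errors were the log2 difference over the square root of F. Scripts were tested on simulated data. Mice are separate animals, and 2 mice per condition limit the power for diet and age. Named genes were, per class, the 3 members called higher with the largest difference and the 3 with the highest median, the 3 largest rises and falls of each comparison, the 5 most abundant members of each individual and 2 genes of each list. Other members named were chosen after their values were seen. Gene positions are from GENCODE vM21 on GRCm38. Intervals are exact Poisson at 95%, and a count of 0 was given a limit of 3 counts. A member is counted among the members but its own values are not reported here.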

Additional observations from a re-analysis of the deposited data

Results flagged for a closer look

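Within 38 groups of 4 to 10 mice, 3 held a mouse set apart from the rest by Dixon's criterion, which chance meets in about 1 of 20 groups. *Serpinb1a* in endothelial cells was at 75.2 in 28 months mouse 1, with the nearest of 8 aging pool mice at 31.1. *Serpinf1* in fibroblasts was at 1019 in 20 months mouse 1, which had 13 fibroblasts, with the nearest of 10 mice at 735. *Serping1* in fibroblasts was at 1940 in 28 months mouse 1, with the nearest of 10 mice at 1474. *Serpinb9* under caloric restriction was at 13.1 and 14.2 in secretory cells, above the control mice at 1.82 to 11.6 (log2 1.42, adjusted p = 0.41 by edgeR). In basal cells it was at 0 and 2.17, below the control mice at 15.6 to 31.5 (log2 -2.95, adjusted p = 0.17 by edgeR). Neither passed the test, the levels are low, and the difference between the classes was not tested. In cells outside the 6 classes of the 21 mice, *Serpina1f* reached a level of 26.4 (487 of its 524 UMIs) and *Serpina16* 6.18 (114 of 121). In the aging pool at least 2 UMIs were found in 12 such cells for *Serpina1f* and in 3 for *Serpina16*.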

How the results depend on the processing

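Of 646 values of named genes under the alternatives, 596 kept their direction and their side of the threshold, 50 kept the direction and lost the call, and 0 reversed. Members called higher in secretory cells numbered 5 by DESeq2, 7 without the count filter and 1 without TMM factors (an alternative chosen after seeing the data), with all UMIs as library size, with an *Svs* share of 50%, with marker cuts doubled, with cells of several gates assigned and with no mitochondrial limit. In prostate-like cells doubled cuts left 1 higher, and those lower were 9 by DESeq2 and 10 without the filter. In basal cells 4 were higher by DESeq2 and 6 without the filter. Those lower in basal cells were 4 with doubled cuts and 1 without the filter, without TMM factors, with all UMIs, with an *Svs* share of 50%, with halved cuts and with the individuals included. In fibroblasts 11 were higher without the filter, and 3 were lower by DESeq2, 2 with doubled cuts and 0 with halved cuts. In endothelial cells 12 were higher without the filter and 0 lower with doubled cuts, and in macrophages 5 were higher by DESeq2 and 8 without the filter. Between the pools there were 25 calls without the filter and 2 in mice of 3 months only, a fit with at most 2 mice of the aging pool and none for endothelial cells. Caloric restriction gave 2 calls by DESeq2, 3 without the filter, 0 with at least 20 cells and 0 without TMM factors. Age gave 5 without the filter. With each mouse left out in turn, caloric restriction gave 0 to 3 calls (3 without caloric restriction mouse 2), age 0 to 1 (1 without 3 months mouse 2), and high fat and low protein 0 to 0. Without the filter and by DESeq2 more members were tested (40 between classes), and the cause of the other shifts was not tested. Of 20435 genes tested by DESeq2, 3198 were called higher in secretory, 1465 in basal and 1842 in macrophage samples. Those called lower were 2267 in prostate-like and 1395 in fibroblast samples. Without TMM factors 385 of 5406 genes were higher in secretory and 514 lower in basal samples. With all UMIs as library size these were 784 and 730 of 5442. Shares of all genes under the other settings are not given here, so those counts of members are not weighed.

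Mice of the same number did not pair, as their deviations correlated at -0.30 to 0.25, and the replicate block gave 2 calls under caloric restriction (*Serpine2* in secretory cells at -0.89, adjusted p = 0.038 by edgeR, and *Serpinh1* in basal cells at 0.98, adjusted p = 0.043). Scaling moved the split of all calls higher and lower in secretory cells from 982 and 1388 to 385 and 2692 without TMM factors, where the median gene shifted from -0.16 to -1.02, and to 3198 and 2176 by DESeq2. Without TMM factors it moved from 664 and 785 to 985 and 514 in basal cells, from 997 and 980 to 1568 and 468 in endothelial cells and from 1029 and 976 to 890 and 1302 in macrophages. By DESeq2 it was 2310 and 2267 in prostate-like cells, against 797 and 1270, and 1448 and 2589 in endothelial cells. Calls lost under several alternatives were *Serpinb5* in secretory cells (6 of 14), *Serpinb8* lower in basal cells (8 of 14) and, between the pools, *Serpinb6a* in basal (5 of 7), secretory (4 of 7) and fibroblast cells (3 of 7).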
